A study of Mus musculus with 18 samples.

Results

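Transcripts of the prelimbic medial prefrontal cortex (mPFC) were compared between mice 72 h after an injection of complete Freund's adjuvant (CFA) and control mice. The comparison takes 6 of the 18 RNA-seq libraries of the series, chosen by their group labels alone: 3 of the mPFC after CFA and 3 of the mPFC of controls. It covers the 18994 genes with enough reads to be tested, of 55401 in the table. All mice were male, wild-type C57BL/6 and 6 to 8 weeks old. The CFA group received 10 μL of 50% CFA, an oil emulsion of killed mycobacteria that keeps the tissue inflamed for days, in the sole of a hind paw. The controls received neither CFA nor formalin. The study's methods give them no injection, whereas its legends call them sham-treated, so the injection itself and the CFA in it cannot be told apart here. For comparison stand 3 mPFC libraries of mice 24 h after 10 μL of 1% formalin, and the BNST (bed nucleus of the stria terminalis), a limbic nucleus that was dissected from the same brains, with 3 libraries after CFA and 3 of controls.

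The prelimbic area belongs to the frontal cortex of rodents and takes part in the control of pain, threat and anxiety. Glucocorticoids, the steroid hormones of the stress response, enter the brain and bind a nuclear receptor that raises the transcription of a known set of genes, among them Fkbp5, Tsc22d3 and Sgk1. Oligodendrocytes wrap axons in myelin, and endothelial cells with their mural cells form the vessels and the barrier between blood and brain. A tissue sample pools the RNA of all of these cells, so fewer cells of a type and less RNA per cell cannot be told apart.

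The 3 CFA libraries of the mPFC held 16035351 to 18072569 counted reads and the 3 control libraries 18558693 to 21155401. Levels are given as CPM, the count of a gene scaled to a common TMM-adjusted library size. Markers of cortical pyramidal neurons summed to 7954 to 8625 CPM after CFA and 8080 to 8785 CPM in controls, so the defining cells of the labelled tissue were present, whereas markers of the choroid plexus (6.03 to 9.4 CPM after CFA, 4.94 to 8.56 CPM in controls) and haemoglobin genes (1.77 to 3.97 CPM and 1.79 to 3.92 CPM) were close to 0. One library stood apart: the myelin genes summed to 4494 CPM in control replicate 3, against 2936 and 2983 CPM in the other controls. Nothing in the labels ties a replicate number to a litter or a day. Unless fewer libraries are named, p-values rest on a spread per gene estimated over all 18 libraries of both regions, with 3 brains a group.

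Fkbp5, Plin4, Sult1a1, Per2 and Cdkn1a were among the genes that rose after CFA, and Opalin, Mog, Dbp, Tfrc and Marcksl1 among those that fell. A gene was called at an adjusted p under 0.05 (Benjamini-Hochberg over all 18994 genes) and an absolute log2 fold change above 0.5, from an edgeR quasi-likelihood model that held all 18 libraries. In total, 120 genes (0.632% of those tested) were called, 64 of them higher (0.337%) and 56 lower (0.295%) after CFA. The median log2 fold change was 0.85 over the higher genes and −0.91 over the lower ones, and 0 over all genes tested. An absolute log2 fold change above 1 was reached by 23 of the higher and 22 of the lower genes. For all 120 called genes the 3 CFA libraries lay on one side of the 3 control libraries, which was the case for 25.6% of all genes tested.

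**Figure D1:**
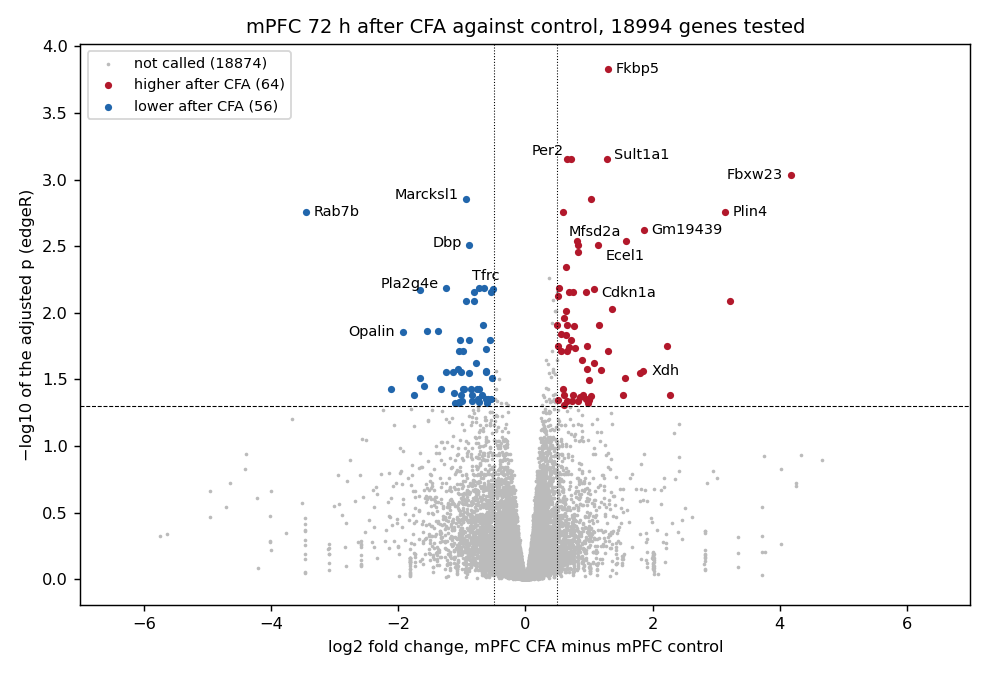
Each point is 1 of 18994 genes, with its log2 fold change (mPFC CFA minus mPFC control) on the horizontal axis and −log10 of its adjusted p on the vertical axis, and the lines mark the thresholds of 0.05 and 0.5. The 64 higher and 56 lower genes stand above the dashed line, with Fkbp5 at the lowest adjusted p (0.000149), Fbxw23 and Plin4 far to the right and Rab7b far to the left.

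The number of called genes differed with the libraries in the model, and which step of the fit makes this difference was not tested. With the 9 mPFC libraries alone it was 498 (203 higher and 295 lower, 40.8% higher), and with the 6 compared libraries alone 483 (42.4% higher), against 120 (53.3% higher) with the BNST libraries in the model. Both of these fits called 118 of the 120 genes. The 18-library model treats the mPFC and BNST libraries of a brain as independent, whereas the mPFC fits hold each brain once. Leaving out mPFC CFA replicate 1, 2 or 3 gave 31, 60 or 52 genes, and leaving out mPFC control replicate 1, 2 or 3 gave 56, 44 or 42. Without any 1 of these 6 libraries, 24 genes passed every time: 18 higher (Fbxw23, Plin4, Gm19439, Ecel1, Fkbp5, Sult1a1, Mfsd2a, Cdkn1a, Rhbdl3, Trib2, Cbs, Rin2, Lfng, Per2, Jade2, Lyst, Spred1 and Stk40) and 6 lower (Tfrc, Prr5l, Dbp, Marcksl1, Pla2g4e and Rab7b). The call of every other gene named here was lost on leaving out at least 1 of them, and no gene changed sign.

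Of 23 tested genes that respond to glucocorticoids, 7 were called higher after CFA (all genes tested, 0.337%) and none lower. Like the other lists here, this one was written with earlier results of these data known, so its counts are no independent support. In this list 20 genes had a log2 fold change above 0, and the median was 0.70 (all genes tested, median 0 and 49.8% above 0). Plin4, which encodes a lipid droplet coat protein, had 15.2, 18.3 and 16.9 CPM after CFA, against 1.68, 1.93 and 2.13 CPM in controls. Its lowest CFA library was thus far above its highest control library, and the log2 fold change was 3.13 ± 0.39 SE (standard error of the fit; adjusted p = 0.00175 from edgeR). Fkbp5, a co-chaperone that lowers the hormone affinity of the glucocorticoid receptor, had 43.7, 53.6 and 42.6 CPM after CFA, against 18.5, 18.3 and 20.1 CPM in controls, and the groups did not overlap (log2 fold change 1.30 ± 0.13 SE, adjusted p = 0.000149). Sult1a1, a sulfotransferase of phenolic compounds, had 13.2, 15.2 and 17.2 CPM after CFA, against 5.88, 5.63 and 7.3 CPM in controls, again without overlap (1.28 ± 0.15 SE, adjusted p = 0.000699). Cdkn1a, the cell cycle inhibitor p21, had 43.1, 38.4 and 41.4 CPM after CFA and 19.2, 19.8 and 19.5 CPM in controls, where the 3 values were nearly equal (1.07, adjusted p = 0.0066). These 4 genes were the members that passed without any 1 of the 6 libraries.

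The other called members were Tsc22d3, which encodes the anti-inflammatory leucine zipper GILZ, Hif3a, a subunit of the hypoxia-inducible factors, and the kinase gene Map3k6. Tsc22d3 had 74, 83.8 and 73.1 CPM after CFA, against 40.2, 41.6 and 36.4 CPM in controls (log2 fold change 0.96, adjusted p = 0.0178 from edgeR). Hif3a was called at 1.01 (adjusted p = 0.0451) and Map3k6 at 0.86 (adjusted p = 0.0432), both at low levels (means of 13.3 and 6.77 CPM after CFA, and of 6.62 and 3.72 CPM in controls). The calls of these 3 genes did not hold without any 1 of the 6 libraries (adjusted p up to 0.18). Sgk1, a kinase gene among the textbook targets of the receptor, had 101, 97.3 and 103 CPM after CFA and 50.5, 52.4 and 58.1 CPM in controls. It did not pass in the model of both regions (log2 fold change 0.90, adjusted p = 0.091), and did with the mPFC libraries alone (adjusted p = 1.45e-05). With those 9 libraries (203 genes higher and 295 lower in all) 12 members were higher and 1, the phosphatase gene Dusp1, lower (log2 fold change −0.64). Some well-known members were not called: the clock gene Per1 averaged 113 CPM (CFA) and 120 CPM (control), Klf9, the member at the highest level, 280 and 242 CPM, and Pdk4, a kinase gene that restrains glucose oxidation, 8.8 and 10.3 CPM. In the model of both regions the receptors themselves, Nr3c1 (121 CPM after CFA and 127 CPM in controls) and Nr3c2 (34.6 and 35.2 CPM), were not called, nor were the other 8 genes of receptors and cofactors. With the 9 mPFC libraries Stip1, 1 of these 8, was called higher (log2 fold change 0.5, adjusted p = 0.0152 from edgeR).

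The promoters of 4 called members of this list and of Scg2, a granin gene described further on, are shown because these genes rose, from RefSeq (GRCm38.p6), as 250 bases before the start site and 50 from it on. The sequences run 5′ to 3′ on the gene's strand, and all 5 genes lie on the minus strand. Capitals mark the half-site of the glucocorticoid response element (AGAACA, or its complement TGTTCT) in Sult1a1 (chr7:126676369-126676668, 212 and 34 bases before the start site) and in 1 of 3 windows of Tsc22d3 (chrX:140600473-140600772, 185 bases before it). In Fkbp5 (chr17:28486100-28486399) they mark an E-box (CACGTG, the clock factors' site, 169 bases before the start site). In Scg2 (chr1:79439977-79440276) they mark a cAMP response element (TGACGTCA, 68 bases before it). The window of Plin4 (chr17:56109733-56110032), the called gene of this list with the largest change, held none of these motifs and is printed without capitals.
Sult1a1: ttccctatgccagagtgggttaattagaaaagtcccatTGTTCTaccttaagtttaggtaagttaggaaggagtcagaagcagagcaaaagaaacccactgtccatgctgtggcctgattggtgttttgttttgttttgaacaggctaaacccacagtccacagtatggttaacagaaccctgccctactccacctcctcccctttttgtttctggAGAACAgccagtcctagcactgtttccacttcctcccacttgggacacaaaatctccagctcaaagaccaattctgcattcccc
Tsc22d3: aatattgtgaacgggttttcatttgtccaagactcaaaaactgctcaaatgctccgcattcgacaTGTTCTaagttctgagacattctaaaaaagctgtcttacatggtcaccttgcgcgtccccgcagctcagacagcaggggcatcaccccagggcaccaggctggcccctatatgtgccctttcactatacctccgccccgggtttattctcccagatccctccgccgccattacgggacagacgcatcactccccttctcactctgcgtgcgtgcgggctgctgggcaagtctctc
Fkbp5: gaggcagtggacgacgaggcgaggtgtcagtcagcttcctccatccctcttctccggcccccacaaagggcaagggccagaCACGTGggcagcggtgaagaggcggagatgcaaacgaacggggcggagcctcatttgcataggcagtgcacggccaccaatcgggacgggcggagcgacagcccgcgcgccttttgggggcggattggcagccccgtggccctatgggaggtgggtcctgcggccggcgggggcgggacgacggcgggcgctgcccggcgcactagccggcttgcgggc
Scg2: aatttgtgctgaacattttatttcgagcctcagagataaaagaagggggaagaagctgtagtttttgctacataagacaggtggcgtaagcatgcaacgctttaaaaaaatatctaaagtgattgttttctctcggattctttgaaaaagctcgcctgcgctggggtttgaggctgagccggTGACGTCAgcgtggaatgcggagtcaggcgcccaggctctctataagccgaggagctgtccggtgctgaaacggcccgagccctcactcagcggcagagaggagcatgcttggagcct
Plin4: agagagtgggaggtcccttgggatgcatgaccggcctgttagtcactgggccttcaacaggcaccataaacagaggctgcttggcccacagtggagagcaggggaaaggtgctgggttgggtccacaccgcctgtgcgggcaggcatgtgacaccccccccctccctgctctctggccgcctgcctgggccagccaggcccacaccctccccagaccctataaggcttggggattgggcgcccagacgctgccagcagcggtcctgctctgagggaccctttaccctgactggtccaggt
Both strands were searched, and the full element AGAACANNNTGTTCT contains the half-site. It was in 3 of 32851 windows and in none of a called gene. Windows were at hand for 46 higher and 40 lower genes. The half-site was found in 7 of the higher genes (Fbxw23, Fmo2, Sult1a1, Tsc22d3, Fam107a, Dpm3 and Fastkd5) and 3 of the lower ones, and in 21.3% of all 27025 genes (19.0% of windows). The E-box was found in 8 higher genes (Fkbp5, Cbs, Rara, Lfng, N4bp3, Acot11, Ppp1r3c and Irs2) and 2 lower ones, and in 8.09% of all genes (7.15% of windows). The cAMP response element was found in 2 higher genes (Dio2 and Scg2) and 3 lower ones, and in 2.03% of all genes (1.79% of windows). These matches were not tested and are not shown to be sites of any factor.

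**Figure D2:**
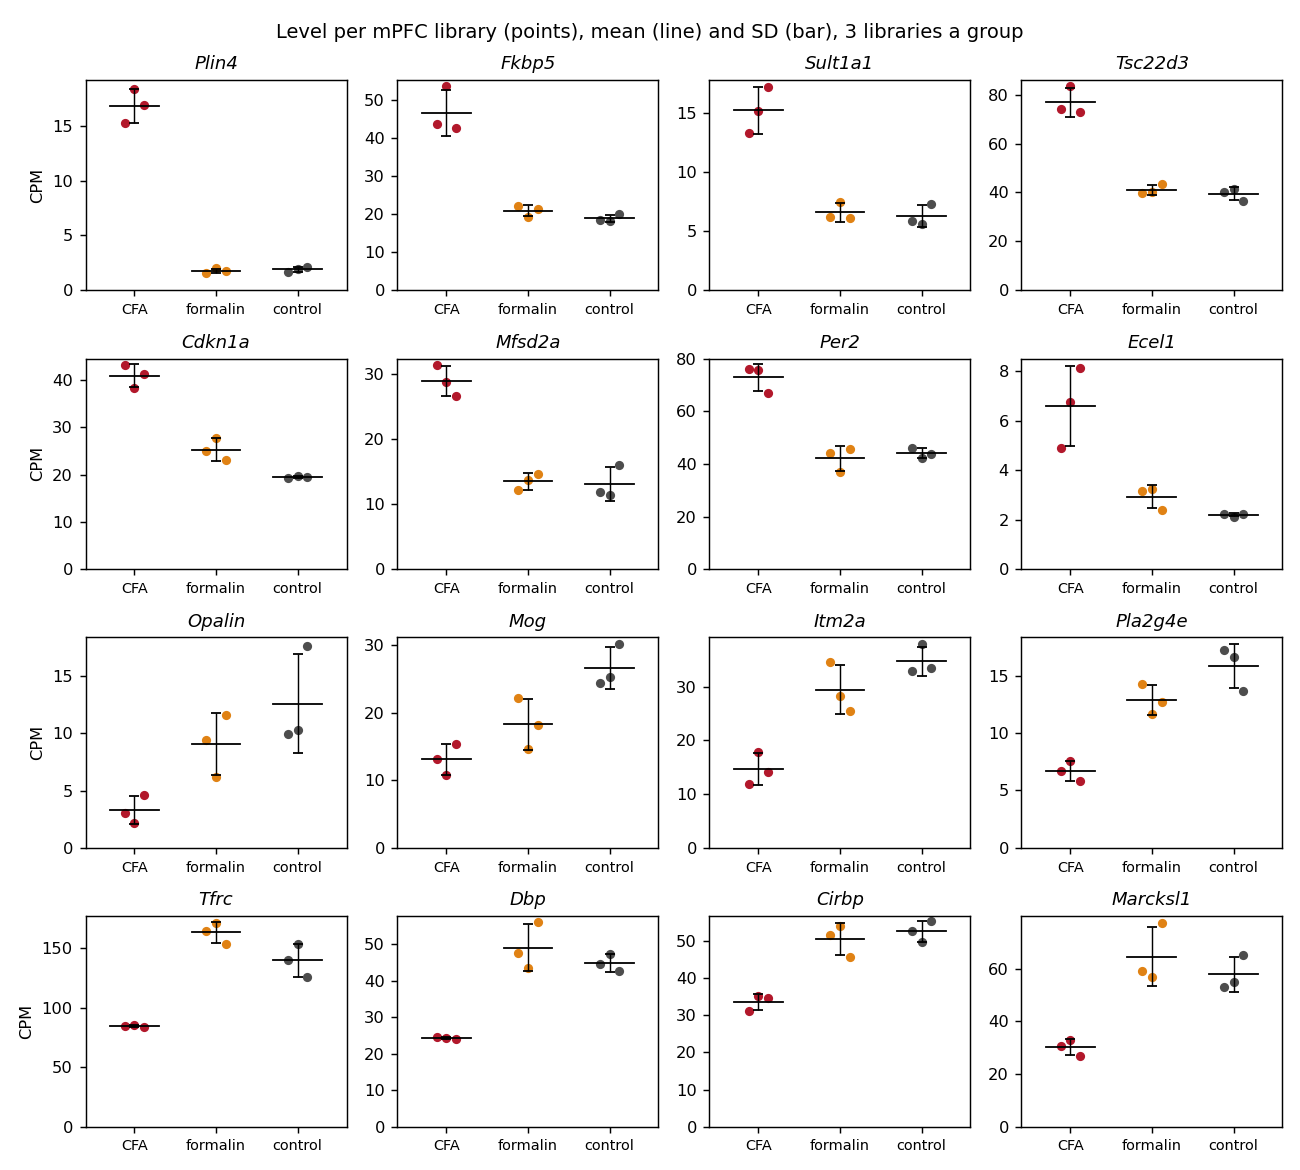
CPM of 16 called genes in the 9 mPFC libraries, with CFA left, formalin in the middle and control right. Points are libraries, lines are means and bars are SDs (n = 3 each). Plin4 lies at 15.2 to 18.3 CPM after CFA and at 1.68 to 2.13 CPM in controls, and Dbp at 24.1 to 24.5 CPM after CFA and 42.6 to 47.4 CPM in controls.

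Genes outside the glucocorticoid-responsive list also rose. Mfsd2a, the lysophospholipid transporter of brain endothelium through which docosahexaenoic acid enters the brain, had 31.4, 28.8 and 26.6 CPM after CFA, against 11.8, 11.4 and 16.1 CPM in controls. The groups did not overlap (log2 fold change 1.15 ± 0.17 SE, adjusted p = 0.00312 from edgeR). Xdh, the oxidase that makes uric acid, had 6.09, 11.5 and 7.53 CPM after CFA and 2, 2.57 and 2.34 CPM in controls (1.86, adjusted p = 0.0275). Alox12b, a lipoxygenase gene, was called at 1.16, with 9.51 to 10.6 CPM after CFA and 4.15 to 4.74 CPM in controls, and Acer2, an alkaline ceramidase gene, at 1.02, with 6.03 to 8.95 CPM and 2.78 to 4.42 CPM. Heph, which encodes the ferroxidase hephaestin, had 8.98, 6.29 and 9.21 CPM after CFA, against 3.42, 3.56 and 3.71 CPM in controls (1.20, adjusted p = 0.027). Except for Mfsd2a, these calls were lost on leaving out 5 or all 6 of the libraries in turn. Of 28 genes of lipid and fasting metabolism, Plin4 and Xdh were called higher (all genes tested, 0.337%) and the median was 0.06. With the 9 mPFC libraries Acot1 was also called higher. The fatty acid transporter gene Slc27a1, the member at the highest level, averaged 144 CPM (CFA) and 118 CPM (control). Cd36, a fatty acid receptor gene with the lowest log2 fold change of the list, averaged 0.277 and 0.562 CPM and was not called.

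Ecel1, Rhbdl3, Cbln4, Tmem40, Gm19439 and Irs2 rose too. Ecel1, an endopeptidase gene known as a marker of injured neurons, had 4.91, 6.75 and 8.11 CPM after CFA, against 2.21, 2.12 and 2.23 CPM in controls, and the control values were nearly equal (log2 fold change 1.58 ± 0.22 SE, adjusted p = 0.0029 from edgeR). Rhbdl3, a rhomboid-family gene of the brain, had 30.9, 39 and 41.9 CPM after CFA, against 19.1, 14.4 and 21 CPM in controls (1.04, adjusted p = 0.0014). Cbln4, which encodes a secreted synapse organizer, had 12.7, 12 and 8.88 CPM after CFA and 6.62, 6.12 and 3.11 CPM in controls (1.08, adjusted p = 0.0239). Tmem40, a membrane protein gene, was called at 1.53 (4.38 to 7.54 CPM after CFA, 1.64 to 2.21 CPM in controls), and the transcript Gm19439, known only by this symbol, at 1.86 (7.27 to 7.94 CPM and 1.26 to 2.94 CPM). Irs2, the insulin receptor substrate, had 114, 121 and 115 CPM after CFA, against 84.3, 80.2 and 80.7 CPM in controls. It was the 1 member called of 18 genes of insulin and growth factor signalling (0.51, adjusted p = 0.0075), while 0.337% of all genes tested were called higher. The extremes of this list were Irs2 itself and Igfbpl1 (−2.15, adjusted p = 0.59).

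Of 11 granin and peptide processing genes, Scg2 and Vgf were called higher (all genes tested, 0.337%) and none lower, with a median log2 fold change of 0.05. Both encode precursors of neuropeptides in dense core vesicles. Scg2 had 221, 223 and 235 CPM after CFA, against 143, 135 and 144 CPM in controls (log2 fold change 0.69 ± 0.13 SE, adjusted p = 0.018 from edgeR). Vgf had 454, 435 and 390 CPM after CFA, against 303, 303 and 241 CPM in controls (0.59, adjusted p = 0.0372). Another precursor gene, Chga, was at 173 and 123 CPM on average, with an adjusted p of 0.023 and a log2 fold change just under the minimum of 0.5. Cpe, the carboxypeptidase of the same vesicles and the member at the highest level, was at 1942 and 1797 CPM, and Pcsk2 had the lowest log2 fold change (−0.11). The calls of Scg2 and Vgf were lost without any 1 of the 6 libraries.

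Of 17 heat shock genes, 16 had a log2 fold change above 0 and the median was 0.33. In the model of both regions only Hspa8 was called, and it was higher (all genes tested, 0.337%). This gene, which encodes the constitutive chaperone HSC70, had 2433, 2164 and 2019 CPM after CFA, against 1654, 1509 and 1481 CPM in controls (log2 fold change 0.51 ± 0.10 SE, adjusted p = 0.0178 from edgeR). The stress-induced Hspa1b had the highest log2 fold change of the list (0.83) and Cryab, a small heat shock protein gene, the lowest (−0.06), and neither was called in this model. With the 9 mPFC libraries (498 genes called in all) 5 members passed (Hspa8, Hspa5, Hspb8, Hspa1b and Hspa1a, all higher). With the 6 compared libraries (483 in all) 4 passed, and without a filter on low counts none.

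The clock genes Per2 and Dbp moved in opposite directions. Per2, a repressor of the circadian loop, had 76.1, 75.5 and 67 CPM after CFA, against 46.2, 42.4 and 43.7 CPM in controls, with no overlap (log2 fold change 0.72 ± 0.09 SE, adjusted p = 0.000699 from edgeR). Dbp, an output transcription factor of that loop, had 24.5, 24.5 and 24.1 CPM after CFA, against 44.6, 47.4 and 42.6 CPM in controls (−0.88 ± 0.13 SE, adjusted p = 0.00312). Both passed without any 1 of the 6 libraries. About 18% of the exon bases of Dbp lie within exons of Sphk2 on the opposite strand, and whether the reads were counted by strand is not given in the sources used here. The other 19 of 21 clock genes were not called in the model of both regions, and the median was 0. With the 9 mPFC libraries alone Nfil3 was also called higher (log2 fold change 0.58, adjusted p = 0.00998 from edgeR). Means after CFA and in controls were 54.7 and 45.5 CPM for Arntl, the activator of the loop, 79.3 and 96.9 CPM for its repressor Nr1d1, and 403 and 411 CPM for Tef, the member at the highest level. Cirbp, a cold-inducible RNA-binding protein that also follows the daily rhythm of body temperature, had 31.1, 35.1 and 34.6 CPM after CFA, against 52.6, 49.6 and 55.4 CPM in controls (−0.65 ± 0.10 SE, adjusted p = 0.00653). Its call was lost only without CFA replicate 1, at an adjusted p of 0.053. The related Rbm3 had 35.2, 40 and 49.1 CPM after CFA and 50.4, 67 and 59 CPM in controls (adjusted p = 0.15). The hour of the day at which the groups were collected is not given in the sources used here.

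Myelin genes were lower after CFA, and their level turned on single libraries. Of 20 genes of mature oligodendrocytes and myelin, 5 were called lower (all genes tested, 0.295%) and none higher. In this list 18 had a log2 fold change below 0, and the median was −0.71. Opalin, a transmembrane protein of oligodendrocytes, had 3.07, 2.18 and 4.63 CPM after CFA, against 9.93, 10.3 and 17.6 CPM in controls (log2 fold change −1.93 ± 0.33 SE, adjusted p = 0.0138 from edgeR). Mog, the myelin glycoprotein on the outer sheath, had 13.2, 10.8 and 15.3 CPM after CFA, against 24.4, 25.2 and 30.1 CPM in controls (−1.02, adjusted p = 0.0416). Control replicate 3 was the highest and CFA replicate 2 the lowest library for both genes, and neither gene overlapped between the groups. Fa2h, the enzyme that hydroxylates the fatty acids of myelin lipids, was called at −0.85, and Ugt8a, the galactosyltransferase of cerebroside synthesis, at −0.78. Ugt8a had 21.1, 18.9 and 22.1 CPM after CFA, against 32.5, 31.5 and 42.6 CPM in controls. Mbp, the member at the highest level, averaged 1007 CPM after CFA and 1381 CPM in controls (adjusted p = 0.33), and the highest log2 fold change was that of Hapln2 (0.57, adjusted p = 0.20).

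The summed level of these 20 genes was 2547, 1919 and 2724 CPM after CFA, against 2936, 2983 and 4494 CPM in controls, so the groups did not overlap but lay close without control replicate 3. None of the 20 genes was called without control replicate 3 (median −0.49), without CFA replicate 1 or without CFA replicate 2, and 1 to 3 were called without any 1 of the others. With the 9 mPFC libraries (295 genes lower in all) 6 members were called lower, Opalin, Mog, Fa2h and Ugt8a among them. Of the 20 genes of oligodendrocyte precursors and newly formed oligodendrocytes, none was called in the model of both regions and 17 were below 0 (median −0.18). With the 9 mPFC libraries Bmp4 was called lower (log2 fold change −0.91, adjusted p = 0.0403 from edgeR). Enpp6, a marker of newly formed oligodendrocytes, was the lowest member, at 2.28 CPM after CFA and 7.99 CPM in controls (adjusted p = 0.053, and 0.000147 with DESeq2, which called it lower). Pdgfra, the defining receptor of the precursors, was at 61.7 and 64.4 CPM, Tnr, the member at the highest level, at 344 and 328 CPM, and Olig1, with the highest log2 fold change, at 86.6 and 79.2 CPM. Pllp, which encodes the myelin protein plasmolipin, stood on no list and was called lower (−0.94, adjusted p = 0.0081), with 4.44 to 5.36 CPM after CFA and 8.35 to 11 CPM in controls. Its exons overlap another gene on the opposite strand over 54.2% of their bases.

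**Figure D3:**
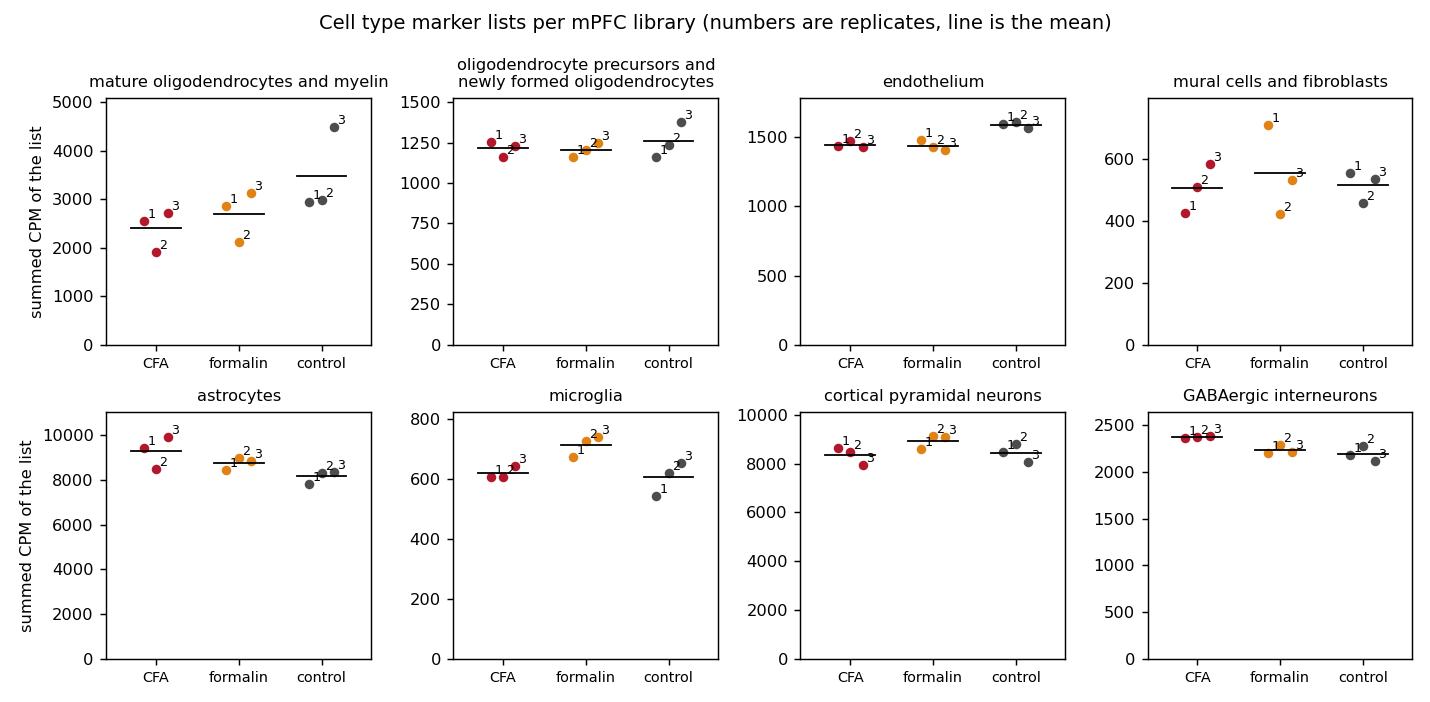
Summed CPM of 8 cell type marker lists in each mPFC library, with CFA left, formalin in the middle and control right, replicate numbers beside the points and the group mean as a line. The myelin genes reach 4494 CPM in control replicate 3 and lie at 1919 to 2724 CPM after CFA, and the endothelial genes lie at 1429 to 1470 CPM after CFA and 1568 to 1612 CPM in controls.

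Lower calls also stood in the lists of endothelial, mural and collagen genes. The 21 endothelial genes summed to 1434, 1470 and 1429 CPM after CFA, against 1595, 1612 and 1568 CPM in controls, without overlap. Tfrc and Itm2a were called lower (all genes tested, 0.295%) and Mfsd2a higher (0.337%), 17 members were below 0, and the median was −0.29. Tfrc, the transferrin receptor through which cells take up iron and the 1 member of 14 iron genes called lower, had 84.5, 85.6 and 83.5 CPM after CFA, against 140, 154 and 126 CPM in controls (log2 fold change −0.73 ± 0.12 SE, adjusted p = 0.00653 from edgeR). Itm2a, a membrane protein gene with high levels in brain endothelium, had 11.9, 17.8 and 14.1 CPM after CFA, against 32.8, 37.8 and 33.4 CPM in controls (−1.25, adjusted p = 0.0278). Cldn5, the tight junction protein of the barrier, averaged 8.68 CPM (CFA) and 15.9 CPM (control) (adjusted p = 0.19), Pecam1 at 8.37 and 9.92 CPM, and the vessel receptor gene Flt1 at 34.9 and 34.8 CPM. The defining endothelial genes were thus not uniformly lower. With the 9 mPFC libraries (203 genes higher and 295 lower in all) 7 members were lower, Cldn5 and Cdh5 among them, and Mfsd2a higher. Among the iron genes, Slc40a1 and Steap3 were also lower in this fit.

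A further 7 genes known from vessels or matrix were lower, 6 of them on no list. Mcam, an adhesion molecule of vessels and pericytes, had 7.8, 5.89 and 7.98 CPM after CFA, against 13.1, 14.1 and 17.6 CPM in controls (log2 fold change −1.05, adjusted p = 0.0193 from edgeR). Ptprb, the vascular endothelial phosphatase, had 15.1, 18.2 and 15.2 CPM after CFA, against 26.3, 34.2 and 35.1 CPM in controls (−0.98, adjusted p = 0.0193). Itga1, an integrin subunit for collagen, was called at −1.02, the basement membrane gene Nid1 at −1.0, the matricellular gene Ccn1 at −0.98 and Ushbp1 at −1.04, each at 2.25 to 6.31 CPM after CFA and 4.99 to 13.8 CPM in controls. Pdgfrb, the receptor that defines pericytes, had 17.4, 18.2 and 16.5 CPM after CFA, against 23.4, 27.8 and 29.1 CPM in controls (−0.62, adjusted p = 0.0444). It was the 1 member called of 19 genes of mural cells and fibroblasts (median −0.31), while 0.295% of all genes tested were called lower. The sums of this list overlapped, at 425 to 584.8 CPM after CFA and 458.9 to 554.5 CPM in controls. With the 9 mPFC libraries Rgs5 and Myh11 of this list were lower too. The lowest member was Col3a1 (−1.78, adjusted p = 0.16) and the highest Ptgds, also the member at the highest level (295 CPM after CFA and 243 CPM in controls). Of 22 collagen genes, Col5a1 (26.9 to 33 CPM after CFA, 44.8 to 50.9 CPM in controls, log2 fold change −0.73) and Col24a1 (−1.33) were called lower (all genes tested, 0.295%). Of these 22 genes 18 were below 0, with a median of −0.33. With the 9 mPFC libraries Col15a1 was also called lower. Of the 22 listed collagen genes none was called on leaving out any 1 of the 6 libraries, and the calls of the 7 genes above were each lost without 4 or more of them. The collagens of the vessel basement membrane, Col4a1 (53.4 and 48.5 CPM) and Col4a2 (93.6 and 82.1 CPM), were not called. Col11a2, a collagen gene outside the list that was chosen after its values were seen, was called lower (−0.55, adjusted p = 0.0159) and lost the call on leaving out any of 4 of the 6 libraries (adjusted p up to 0.089 over all libraries left out).

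Other genes that fell belong to no such group. Pla2g4e, a phospholipase that makes precursors of endocannabinoids, had 6.74, 7.54 and 5.79 CPM after CFA, against 17.2, 16.6 and 13.7 CPM in controls (log2 fold change −1.24 ± 0.20 SE, adjusted p = 0.00653 from edgeR). Marcksl1, an actin-binding protein of growing neurites, had 30.7, 33.1 and 27 CPM after CFA, against 53.2, 55 and 65.3 CPM in controls (−0.93 ± 0.12 SE, adjusted p = 0.0014). It was the 1 call among 22 genes of neuroblasts and cell division (median −0.29), while 0.295% of all genes tested were called lower. With the 9 mPFC libraries Dcx and Dpysl3 of this list were lower too. Gbp3, an interferon-induced GTPase, was the 1 call among 24 genes of interferon and antigen presentation (median −0.09), at 1.06, 0.595 and 1.67 CPM after CFA and 3.21, 3.8 and 3.54 CPM in controls (−1.65, adjusted p = 0.0067). With the 9 mPFC libraries Oasl2 and Ifit3 of this list were also called lower. Fam71e1 (−1.13) and the noncoding RNA 1700047M11Rik (−0.96) completed the 15 lower genes with the largest change at 5 CPM or more.

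The 2 largest changes among low counts are described here and were chosen after their values were seen. Rab7b, a small GTPase gene of late endosomes, had 2, 2 and 1 reads after CFA, against 21, 27 and 22 reads in controls, so the CFA level was 0.0865 times that of controls (95% interval 0.0273 to 0.212, counting error only). Its adjusted p was 0.00175 from edgeR, and 0.825 to 1.51 CPM were measured after formalin, against 0.0644 to 0.132 CPM after CFA. Fbxw23, annotated as a transcribed pseudogene on chromosome 9, had 24, 35 and 50 reads after CFA and 3, 3 and 1 in controls, a ratio of 18.9 (95% interval 8.85 to 48.0). Gm43089 and Fbxw15 on the same chromosome also rose. Fbxw15 belongs to the same gene family, so the assignment of reads among near-identical copies is uncertain.

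Most lists of neuronal function held no called gene. Of all genes tested 0.632% were called, a share at which a list of this size mostly holds none. No member was called of 33 genes of glutamatergic transmission (median −0.00), 35 of calcium channels and transport (−0.06), 35 of sodium, potassium and HCN channels (−0.04), 12 GABA-A receptor subunits (−0.05) and 31 of synaptic vesicle release (−0.03). The extremes of the glutamatergic list were Homer1, a scaffold of postsynaptic receptors (366 CPM after CFA and 231 CPM in controls, adjusted p = 0.078), and Grm2 (57.2 and 75.3 CPM). Shank1, its member at the highest level, was at 1161 and 996 CPM. Of 27 immediate early genes none was called and the median was −0.08. With the 9 mPFC libraries (203 genes higher and 295 lower in all) 2 were higher (Bdnf and Homer1) and 2 lower (Dusp1 and Ier2). With the 6 compared libraries (205 and 278 in all) 2 were higher and 4 lower. Npas4 (log2 fold change −0.89, adjusted p = 3.48e-05) and Btg2 (adjusted p = 0.00614) were added to the lower ones there. Fos had 32.4, 37.4 and 36 CPM after CFA and 54.3, 46.2 and 45.9 CPM in controls, values that did not overlap but missed the threshold (log2 fold change −0.47 ± 0.44 SE, adjusted p = 0.71). The study reports more staining of c-Fos protein in the mPFC after CFA than after saline, a measure other than this transcript. Btg2 was the lowest of the list (−1.0, adjusted p = 0.35), Bdnf, the neurotrophin gene, the highest (0.69, adjusted p = 0.54), and Arc was at 361 and 336 CPM.

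Genes of inflammation and of microglia held no call either: 0 of 23 tested genes of NF-kB and inflammation (median −0.04, with 10 of 33 not tested) and 0 of 21 microglial genes (median 0). With 0.632% of all genes tested called, none is the likely count for lists of this size. With the 9 mPFC libraries, a fit that called 498 genes in all, 2 of each list passed. These were Nfkbia and Ptgs2, both higher, among the inflammatory genes, and Mertk (higher) and Cd33 (lower) among the microglial ones. Nfkbia, the NF-kB inhibitor that glucocorticoids also induce, had 14.4, 16.5 and 16.5 CPM after CFA, against 9.72, 9.38 and 9.92 CPM in controls, and narrowly missed the call (log2 fold change 0.70, adjusted p = 0.0505 from edgeR). P2ry12, a receptor of resting microglia, had 28, 29.5 and 32.1 CPM after CFA and 31.9, 38.2 and 40 CPM in controls. Csf1r, the microglial member at the highest level, was at 103 and 112 CPM. The study singled out Nfkbia, P2ry12, Nos1, Cacna1h and Cav2 in the mPFC for a difference between CFA and formalin, not between CFA and controls. Against controls, the others were not called either. Nos1, the neuronal nitric oxide synthase, was at 95.2, 109 and 110 CPM after CFA and 83.8, 74.9 and 118 CPM in controls. Cacna1h, a T-type calcium channel, was at 104, 134 and 135 CPM and 105, 93.6 and 101 CPM, and Cav2, caveolin-2, at 31.7, 27.5 and 27.4 CPM and 39.8, 39.5 and 32.9 CPM. Of 20 astrocyte genes only Htra1, a secreted protease, was called (173 to 214 CPM after CFA, 113 to 128 CPM in controls, log2 fold change 0.68, adjusted p = 0.00699), with a median of 0.19. With the 9 mPFC libraries Serpina3n and Gjb6 of this list were also higher and Id3 lower. Genes of the translation and respiration machinery shifted by small amounts without a call: all 37 cytosolic ribosomal protein genes were above 0 (median 0.24) and 45 of 47 nuclear genes of oxidative phosphorylation were (median 0.17).

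**Figure D4:**
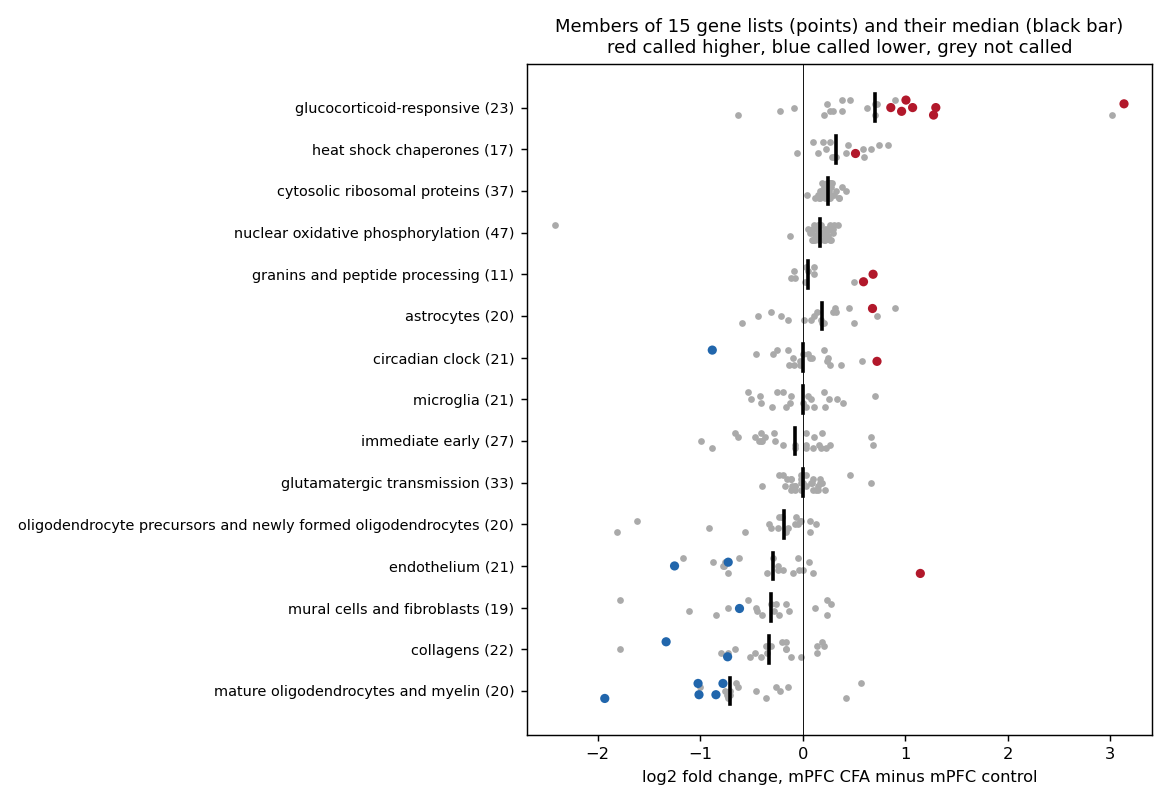
Log2 fold changes (mPFC CFA minus mPFC control) of the members of 15 gene lists, 1 point per gene, with the number tested in brackets and the list median as a black bar. The medians run from 0.70 for the glucocorticoid-responsive genes to −0.71 for the myelin genes, with the neuronal, clock and microglial lists at about 0. The lists were written with earlier results of these data known.

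Set against the mPFC 24 h after formalin, 177 genes (0.932%) were called, 106 higher (0.558%) and 71 lower (0.374%) after CFA. This comparison uses the same 3 CFA libraries, and kind of injection and time of collection differ together in it, so its values stand beside those above and are no separate support. Plin4 had 1.58, 1.99 and 1.71 CPM after formalin, close to the controls, and its log2 fold change of CFA over formalin was 3.26 (adjusted p = 0.00117 from edgeR). Fkbp5 had 22.2, 19.3 and 21.3 CPM after formalin (1.16, adjusted p = 0.000287), and Per2 had 44.1, 36.8 and 45.6 CPM (0.79, adjusted p = 0.000287). Among the lower genes, Dbp had 47.7, 43.4 and 56.1 CPM after formalin (−1.01, adjusted p = 0.000926), and Tfrc had 165, 172 and 154 CPM (−0.95, adjusted p = 0.000741). For these 5 genes the formalin libraries lay on the side of the controls and apart from all CFA libraries.

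Other genes were at an intermediate or equal level after formalin. Mog had 22.1, 14.6 and 18.2 CPM after formalin, below the controls and with 1 library within the CFA range, and did not pass the test of CFA against formalin (log2 fold change −0.49, adjusted p = 0.298 from edgeR). Scg2 had 217, 177 and 200 CPM after formalin (0.19, adjusted p = 0.526), so 1 formalin library lay near the CFA values of 221 to 235 CPM. Col5a1 had 31.5, 22.6 and 27.9 CPM after formalin, overlapping the CFA libraries (0.10, adjusted p = 0.834), and Ccn1 had 5.22, 2.54 and 4.59 CPM (0.40, adjusted p = 0.403). The endothelial sum was 1407 to 1479 CPM after formalin, within reach of the CFA values and below the controls. Median log2 fold changes of CFA over formalin were 0.66 for the glucocorticoid-responsive genes, with 7 members called higher, and −0.23 for the myelin genes, with Opalin called lower and Hapln2 higher. Of the genes singled out by the study, Cav2 (−0.67, adjusted p = 0.00225) and P2ry12 (−0.68, adjusted p = 0.0113) were lower and Cacna1h (0.65, adjusted p = 0.00831) was higher after CFA than after formalin. Nos1 (0.53, adjusted p = 0.0608), Nfkbia (0.56, adjusted p = 0.085) and Fos (0.22, adjusted p = 0.88) did not pass this test. With DESeq2, the study reports all of these genes but Fos as differing between CFA and formalin in the mPFC. The study's evidence on Fos is protein staining. In this comparison the edgeR model called 177 genes, and DESeq2 on the same 18 libraries 311.

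The same mice gave the BNST libraries, where 2269 genes (11.9%) were called after CFA against controls, 928 higher (4.89%) and 1341 lower (7.06%). Of the 64 genes higher in the mPFC, 28 (43.8%) were called higher and 1 lower in the BNST, and of the 56 lower genes 24 (42.9%) were called lower and none higher. The glucocorticoid-responsive list had a median log2 fold change of 0.75 in the BNST, with 15 of 23 called higher, and the myelin list one of −0.01. Markers of the striatum, which borders the BNST, summed to 414.69 to 849.01 CPM in the BNST after CFA and 1842.1 to 4344.87 CPM in its controls, with 15 of 16 called lower. In the mPFC the same genes summed to 312.8 to 351 CPM after CFA and 261.8 to 301.8 CPM in controls. Choroid plexus markers summed to 282.9, 18908.6 and 234.88 CPM in the BNST after CFA and 66.69, 852.61 and 116.46 CPM in its controls. The part of these markers in the BNST values below was not tested.

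A test of the difference between the regions, the log2 fold change after CFA in the mPFC minus that in the BNST, called 792 genes (4.17%), 574 higher (3.02%) and 218 lower (1.15%). It called 22 of the 120 genes, 14 of the 64 higher and 8 of the 56 lower ones, each in the direction of its change in the mPFC. The mPFC libraries that chose these genes enter this test too, and the 2 regions come from the same brains. With each brain as a block, taking the same replicate number as 1 brain, 654 genes were called and 16 of the 22 held. Per2 differed most clearly: against 67 to 76.1 CPM after CFA and 42.4 to 46.2 CPM in controls in the mPFC, it had 23.3, 25.4 and 24 CPM after CFA and 33.9, 29.1 and 34 CPM in controls in the BNST. Its change was thus upward in one region and downward in the other (difference 1.14 ± 0.12 SE, adjusted p = 5.17e-05 from edgeR), with a BNST log2 fold change of −0.42 that is below the fold minimum. Lyst, a regulator of lysosome traffic, and Rhbdl3 showed the same pattern (differences 1.05 and 1.45, adjusted p = 0.000222 and 0.000188). Ecel1 had 102, 74.8 and 107 CPM after CFA and 93.8, 84.2 and 87.7 CPM in controls in the BNST, where its groups overlapped (difference 1.49, adjusted p = 0.0038). Fkbp5 rose in both regions, by 1.30 in the mPFC and 0.65 in the BNST (difference 0.65, adjusted p = 0.0421). This difference was lost with a replicate block within each region (adjusted p = 0.075), with limma-voom and on leaving out any of 9 of the 12 libraries, and held with the brains as a block (adjusted p = 0.0192). Ugt8a, which was called lower in the mPFC, had a mean of 91.8 CPM after CFA and 91.7 CPM in controls in the BNST (difference −0.78, adjusted p = 0.0404, and 0.0669 with the brains as a block). Sgk1, not called in the mPFC in this model, was higher after CFA in both regions, with the larger change in the BNST. There it had 241, 461 and 211 CPM after CFA, against 60.3, 60.2 and 42.9 CPM in controls (difference −1.58, adjusted p = 0.0116). For Plin4, Sult1a1, Tsc22d3, Dbp and Cirbp the difference was not called. It was −0.33 for Plin4 (standard error 0.52) and lay between −0.22 and 0.06 for the others (standard errors 0.14 to 0.24).

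**Figure D5:**
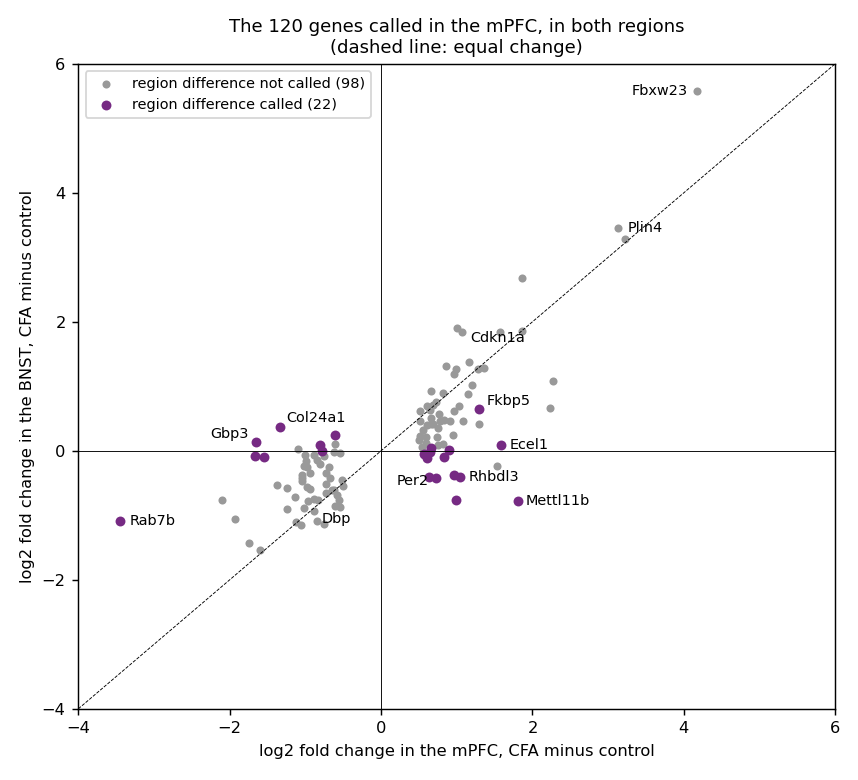
Log2 fold changes of CFA minus control for the 120 genes called in the mPFC, with the mPFC on the horizontal and the BNST on the vertical axis and the dashed line marking equal change. Plin4 and Dbp lie near the line, and the 22 genes with a called difference between the regions, such as Per2, Rhbdl3 and Ecel1, lie away from it.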

How the data were processed

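Per the submitters' processing notes and the methods, the authors used Trimmomatic 0.39 for trimming of paired-end reads, HISAT2 2.2.1 for alignment to GRCm38, SAMtools for sorting and featureCounts 2.0.1 for counting. The deposited table holds their raw counts for 55401 genes in 18 libraries, as whole numbers without normalization. The mPFC libraries share 1 lane tag in the study's tables. Gene types and positions came from GENCODE M21, where 260 identifiers had no entry.

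The counts were fitted in R 4.3.3 with edgeR 4.0.16 (robust quasi-likelihood, TMM) on 18 libraries in 6 groups of 3. The filterByExpr step (minimum count 10, minimum total 15) left the genes tested, with 12 residual degrees of freedom. The mPFC libraries held 15684723 to 23408503 reads, and intervals of count ratios cover counting error only. Within each group, libraries varied beyond counting noise. The model was also run on counts simulated from its own fitted spread, with the same mean in both regions. Such counts cannot check a spread that is shared between regions or brains.

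Named were the 15 higher and 15 lower called genes with the largest change, non-overlapping groups and a higher-group mean of 5 CPM or more. Added were every called member of 43 gene lists, the genes the study named, and extremes and most abundant members of lists that are described. Genes outside this rule, such as Sgk1, Cldn5, Cdh5, Pecam1, Flt1, Pdgfra, Nr3c2, Per1, Pdk4, Arntl, Nr1d1, Chga, Arc, Col4a1, Col4a2, Rbm3, Npas4, Dusp1, Ier2, Col11a2 and Lyst, were chosen after their values were seen. Some genes that the rule names are not reported here. Members and lists were chosen with earlier results of these data known. RefSeq promoters (GRCm38.p6) were matched by symbol for 86 of the 120 called genes.

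Alternatives were DESeq2 1.42.0, limma-voom (limma 3.58.1), RLE normalization, no filter, a stricter one (a total of 200 reads and, throughout 1 group, 1 CPM), fits to fewer libraries, a replicate block, a block of brains added after seeing the data, no fold minimum, a test against the fold minimum (glmTreat) and each library left out.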

Additional observations from a re-analysis of the deposited data

Results flagged for a closer look

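For 22 of the 120 called genes the CFA effect differed between the regions in edgeR's test (mPFC minus BNST, log2 scale), and 19 of them were not called in the BNST. Among genes higher in the mPFC, the difference was 2.58 for Mettl11b, 1.75 for Gm48063, 1.49 for Ecel1, 1.45 for Rhbdl3, 1.33 for Fst, which encodes the activin-binding protein follistatin, 1.14 for Per2 and 1.05 for Lyst. It was 0.93 for Trib2, 0.89 for P4ha3, a subunit of collagen prolyl hydroxylase, 0.73 for Zfp180, 0.67 for Sgsm1, 0.65 for Fkbp5, 0.62 for Jade2 and 0.61 for Otub2. Gm48063 was the 1 gene called in opposite directions in the 2 regions.

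Among genes lower in the mPFC, the difference was −2.36 for Rab7b, −1.8 for Gbp3, −1.7 for Col24a1, −1.59 for the protease inhibitor gene Serpinb1a, −1.46 for Bace2, a protease related to the beta-secretase, −0.9 for Prr5l, −0.86 for the myosin gene Myo16 and −0.78 for Ugt8a. Of the 22 calls, 12 held without each compared library and 10 were lost without at least 1. The striatal and choroid plexus markers of the BNST libraries differed between its groups, and their part in these differences was not tested.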

How the results depend on the processing

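All 120 genes kept their direction under every alternative, but their number did not hold: against 120, DESeq2 called 262 (44.3% higher), the 9 mPFC libraries alone 498 (40.8% higher), the 6 compared libraries 483 and glmTreat 7 (6 higher, 1 lower). Leaving out each library gave 31 (without mPFC CFA replicate 1) to 191 (without BNST CFA replicate 2). Without mPFC CFA replicate 1 or mPFC control replicate 3, 71.0% and 71.4% of the calls were higher, and without a minimum fold change 157 genes passed. The CFA against formalin count of 177 became 334 without a minimum fold change, 311 with DESeq2, 552 with the 9 mPFC libraries, 597 with the 6 compared libraries and 9 with glmTreat, and ran from 50 (without mPFC formalin replicate 3) to 266 (without BNST CFA replicate 2) on leaving out a library. The count of 792 for the difference between the regions became 154 with glmTreat and 497 to 895 on leaving out a library (lowest without mPFC CFA replicate 1). The causes were not tested. Limma-voom, RLE normalization and both filters left all 3 counts within 1.5 times.

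The CFA and control libraries share only replicate numbers: same-numbered CFA and control libraries of the mPFC had correlations of their deviations of 0.025, 0.081 and 0.139, and 2 of the 3 CFA libraries correlated best with their own number. With a replicate block, 95 genes were called (84 of the 120 among them), 725 for the difference between the regions (lost by Rab7b, Col24a1, P4ha3, Bace2 and Fkbp5) and 140 against formalin. Both regions came from the same brains, but no label says that a number marks a brain, and same-numbered libraries of the 2 regions had correlations of −0.032 to 0.166. A replicate block of brains under that assumption, chosen after seeing the data, called 654 genes for the difference between the regions (6 residual degrees of freedom), and Fst, P4ha3, Ugt8a, Col24a1, Bace2 and Serpinb1a lost the call. With 3 brains a group, low counts limit the precision: genes of a few CPM, such as Gbp3, Rab7b and Ushbp1, rest on few reads, and most calls of vessel, collagen and myelin genes sit close to the threshold.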

Other observations

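The 6 genes below, of neurons, astrocytes and endothelium, had groups that did not overlap, as did 25.6% of all genes tested. All 6 missed the threshold in the edgeR model of both regions, but passed with the 9 mPFC libraries alone. With DESeq2, Homer1, Serpina3n, Slco1a4 and Dcx were called, and Bdnf and Vip were not. These genes were chosen after their values were seen. Bdnf had 46.4, 43.9 and 44.2 CPM after CFA, against 29.2, 28.6 and 25.5 CPM in controls (log2 fold change 0.69, adjusted p = 0.54 from edgeR, and 1.29e-05 with the mPFC libraries). Homer1 had 415, 329 and 353 CPM after CFA and 241, 240 and 211 CPM in controls (adjusted p = 0.078, and 0.000163). Vip, the peptide of a class of interneurons, had 55.7, 55.6 and 65.5 CPM after CFA and 35.4, 38.2 and 31 CPM in controls (adjusted p = 0.34 in the model of both regions). The astrocyte gene Serpina3n had 26.6, 24.3 and 22 CPM after CFA, against 12.4, 12.3 and 14.4 CPM in controls (adjusted p = 0.059). Slco1a4, an organic anion transporter of the brain endothelium, had 19.4, 19.2 and 17.8 CPM after CFA, against 35.9, 45.1 and 46.2 CPM in controls (adjusted p = 0.15), and Dcx, the microtubule protein of migrating neurons, had 51.4, 47.2 and 46.2 CPM, against 80.2, 68.5 and 101.7 CPM (adjusted p = 0.086).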
